A study of Homo sapiens with 4 samples.

Results

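FBXL14, ASMTL, PAAF1 and IAH1 are 4 protein-coding genes whose RNA was higher in HCT116 cells given the anti-GAA oligonucleotide, out of 63677 genes counted. They were chosen by name with the comparison of these same libraries known. Ordered by its p, they hold ranks 1, 2, 3 and 5 among the higher genes whose mean reached 1 CPM (reads of a gene in every 1000000 counted). All 4 passed the filter on low counts, which left 15116 genes. FBXL14 passed it, and reached a mean of 1 CPM, only through its anti-GAA libraries (2.43 CPM on average, 0.497 in the controls). Since the members were chosen on this contrast, their differences are given as descriptions with no test.

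HCT116 is an established line of human colorectal cancer cells. The cells were transfected for 48 h with an antisense oligonucleotide (ASO), a short synthetic strand that pairs with complementary RNA and can direct its cleavage by RNase H. The anti-GAA ASO was designed against 21 nt of tandem GAA repeats in RNA, to lower RNAs that carry them, and the control ASO has a scrambled sequence. Each group had 2 libraries, all from the same line, with no further treatment. The study's methods describe the RNA-seq as done in duplicate, and the labels do not say whether libraries of one replicate number share a culture or a day.

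The 4 genes have different roles in the cell. FBXL14 is an F-box protein with leucine-rich repeats, the substrate-binding part of an SCF ubiquitin ligase, which tags proteins such as the SNAI1 family of transcription factors for destruction. PAAF1 is a WD-repeat chaperone that binds the ATPase subunits of the 19S proteasome cap while the cap is being assembled, so both work along the route by which cells degrade proteins. ASMTL joins a Maf-like nucleotide pyrophosphatase domain to a part resembling the methyltransferase of melatonin synthesis, and its gene lies in the pseudoautosomal region, the stretch of sequence shared by the X and Y chromosomes. IAH1 belongs to the GDSL family of hydrolases and is named after a yeast esterase that cleaves isoamyl acetate.

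Total counts ran from 10538284 to 17894953, with the anti-GAA replicate 1 library the shallowest, and replicates of a group differed beyond counting noise (chi-square per degree of freedom 36.8 and 37.8). The summed level of 9 markers of colorectal epithelium was 2575 to 2914 CPM over the 4 libraries, with 6 of the 9 at 1 CPM or more in each and VIL1 and CEACAM5 under the filter. Of 8 markers of leukocytes, endothelium and fibroblasts only COL1A1 passed the filter, at 10.1 to 14.6 CPM, and CD3E, PECAM1, COL1A2 and DCN were at 0 in each library. Over the genes tested, the median log2 fold change (anti-GAA over control) was 0.01, and 7802 genes (51.6%) lay above 0. By edgeR's quasi-likelihood test 0 genes (0%) were called higher at an adjusted p under 0.05, the smallest adjusted p being 0.671, and DESeq2 also called 0 higher. At an unadjusted p under 0.05, 154 genes (1.02%) were higher and 523 (3.46%) lower. The 4 genes are among the 154 because they were picked from the top of that order, so their presence there is no result.

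FBXL14 was the lowest expressed of the 4 and showed the largest difference. Its raw counts were 22 and 47 in the anti-GAA libraries (replicates 1 and 2) and 8 and 8 in the control libraries. After scaling for library size and composition by the trimmed mean of M-values (TMM), these were 2.22 CPM (95% exact Poisson interval 1.39 to 3.37) and 2.64 CPM (1.94 to 3.51) against 0.522 CPM (0.225 to 1.03) and 0.472 CPM (0.204 to 0.930). Both anti-GAA libraries were above both controls, and the counting intervals of the groups did not meet, although the intervals cover counting error only. The group means were 2.43 ± 0.296 and 0.497 ± 0.0353 CPM (SD, n = 2 each). The fitted log2 fold change was 2.28 (SE 0.46), a 4.86-fold difference. By replicate number the difference in log2 CPM was 1.85 in the first pair and 2.20 in the second. In bulk RNA, more cells with the transcript and more transcript per cell cannot be told apart, here and for the other members. With 8 counts in each control library, the size of this difference is the least precisely known of the 4.

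PAAF1, the proteasome assembly chaperone, had 306 and 496 counts with anti-GAA and 244 and 236 with the control ASO. Its levels were 30.9 CPM (27.5 to 34.6) and 27.9 CPM (25.5 to 30.4) against 15.9 CPM (13.98 to 18.0) and 13.9 CPM (12.2 to 15.8). The groups did not overlap, the lower anti-GAA library standing 1.75-fold above the higher control. Means were 29.4 ± 2.15 and 14.9 ± 1.41 CPM (SD, n = 2 each), with a fitted log2 fold change of 0.98 (SE 0.22), or 1.97-fold. The pairs gave nearly the same difference in log2 CPM, 0.95 and 1.00.

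ASMTL was the most abundant of the 4. It had 1011 and 1623 counts in the anti-GAA libraries and 674 and 899 in the controls, the most precise counts of the set. These correspond to 102 CPM (95.9 to 109) and 91.2 CPM (86.8 to 95.8) against 43.95 CPM (40.7 to 47.4) and 53.0 CPM (49.6 to 56.6). The replicates of ASMTL differed by more than their counting intervals in both groups, in opposite directions, yet the groups stayed apart. Means were 96.7 ± 7.73 and 48.5 ± 6.41 CPM (SD, n = 2 each) and the fitted log2 fold change was 0.99 (SE 0.21), or 1.99-fold. The first pair differed by 1.21 and the second by 0.78 on the log2 CPM scale, the widest disagreement between pairs among the 4 genes. ASMTL has the same sequence on both sex chromosomes, and how reads matching several places were counted is not given in the sources used here.

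IAH1, the predicted ester hydrolase, had 289 and 526 counts with anti-GAA and 257 and 281 with the control. Its levels were 29.2 CPM (25.9 to 32.8) and 29.6 CPM (27.1 to 32.2) against 16.8 CPM (14.8 to 18.9) and 16.6 CPM (14.7 to 18.6). It was the steadiest of the 4 within groups and had the smallest difference between them. Means were 29.4 ± 0.257 and 16.7 ± 0.133 CPM (SD, n = 2 each), the fitted log2 fold change was 0.82 (SE 0.21), or 1.76-fold, and the pairs gave 0.80 and 0.83 in log2 CPM. An SD this small from 2 libraries is itself poorly known and lies below the counting error of either library.

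**Figure D1:**
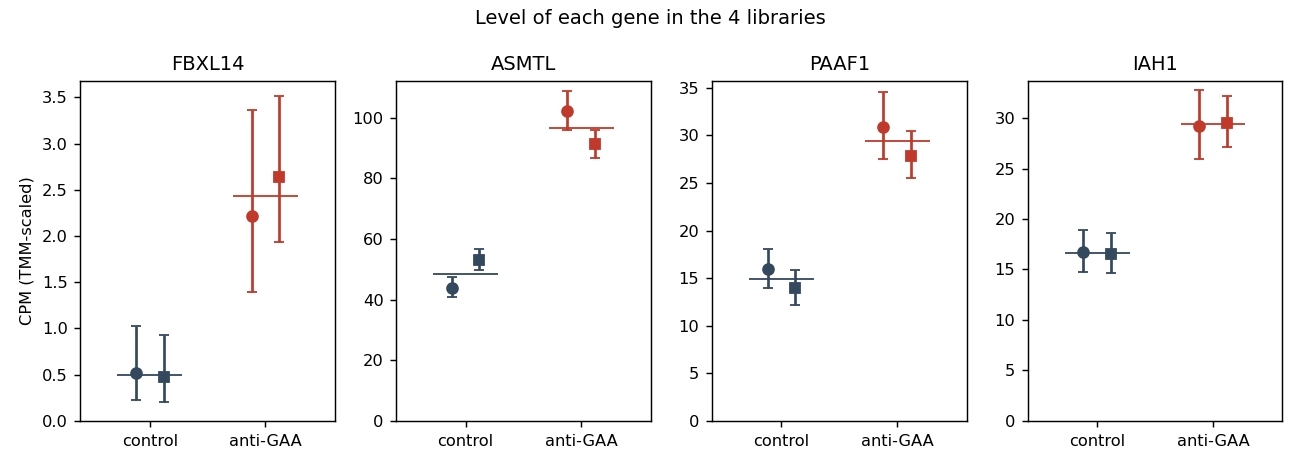
Level of each gene (TMM-scaled CPM, linear axis from 0, a separate scale in each panel) in the control (dark) and anti-GAA (red) libraries, with circles for replicate 1, squares for replicate 2, bars for 95% exact Poisson intervals and horizontal lines for group means. In each panel both anti-GAA libraries sit above both controls, with FBXL14 below 3.51 CPM at the top of its intervals and ASMTL reaching 102 CPM.

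Before any scaling, both anti-GAA libraries held more counts than both controls for each member, in IAH1 by only 289 against 281. The members were chosen on this contrast, so nothing is read from this separation. The anti-GAA replicate 1 library was shallower than its control, yet it held 2.75 times the FBXL14 counts, 1.5 times those of ASMTL, 1.25 times those of PAAF1 and 1.12 times those of IAH1. In the second pair, where the anti-GAA library was the deeper, the raw ratios were 5.88, 1.81, 2.10 and 1.87 in the same order. After TMM scaling the ratios of CPM in the first pair were 4.26, 2.32, 1.94 and 1.74, and in the second 5.60, 1.72, 2.00 and 1.78. So scaling brought the pairs of PAAF1 and IAH1 close together, while those of ASMTL moved apart.

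Both anti-GAA libraries exceeded both controls for all 4 members. The same held for 2339 of the genes tested (15.5%), and the reverse for 2554 (16.9%). Since the members were chosen on this contrast, nothing is read from their count. FBXL14, ASMTL and PAAF1 took ranks 1, 2 and 3. The lncRNA gene ENSG00000254682 (GRCh38 chr11:71448562-71452157) took rank 4 and is not a member, with 33.7 and 28.7 CPM against 17.0 and 16.0 CPM and a log2 fold change of 0.92 (SE 0.22). IAH1 took rank 5. CNPPD1 came directly after it, with 77.5 and 69.1 CPM against 45.5 and 33.3 CPM and a log2 fold change of 0.89 (SE 0.23). The genes just inside and just outside the choice therefore hardly differed in size of change.

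Per kilobase of exon sequence merged over all annotated transcripts, ASMTL was again the highest, with 27.6 CPM per kb with anti-GAA and 13.8 with the control. IAH1 followed at 4.98 against 2.82 CPM per kb, PAAF1 at 3.71 against 1.88, and FBXL14 at 0.900 against 0.184. The order of the 4 genes was the same in both groups. IAH1 and PAAF1 were neighbours in this order, with means of 29.4 CPM each with anti-GAA and merged exons of 5901 and 7922 nt. Their order in that group rests on these lengths, which pool all annotated transcripts, those with retained introns included.

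The members were also compared by their pattern over the 4 libraries, in a distance that includes the size of change. Each gene's log2 CPM was centred on its own mean and compared by Euclidean distance with 13805 genes of at least 1 CPM. PAAF1 and IAH1 lay 0.235 apart, ASMTL and IAH1 0.302, and ASMTL and PAAF1 0.327, while FBXL14 was 1.08 to 1.22 from the other members. The values were not scaled, so the distances of FBXL14 include its larger log2 fold change. The genes nearest to FBXL14 were FABP5 (distance 0.655), a fatty acid-binding protein, KLHL7-DT (0.674) and ENSG00000231769 (0.805). Nearest to ASMTL were PAX8 (0.112), a paired-box transcription factor, OGFR-AS1 (0.175) and ENSG00000258561 (0.205). PAAF1 was closest to HOXC-AS1 (0.0939), to ENSG00000254682 (0.116), the lncRNA gene of rank 4, and to ENSG00000182611 (0.126). For IAH1 the closest were ENSG00000269246 (0.0244), AMT (0.0486), a subunit of the glycine cleavage system, and HMSD (0.0806). The points are 4 libraries in 2 groups, shared by all genes, so this likeness is a description only.

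Where the genes lie and what their transcripts look like was taken from GENCODE 44 on GRCh38, joined by Ensembl identifier, since the counts were made on hg19. FBXL14 (ENSG00000171823) is at chr12:1565993-1594581 on the minus strand, with 2 annotated transcripts of which 1 is coding. Its longest transcript has 2 exons and 2527 nt with 61.1% GC. ASMTL (ENSG00000169093) is at chrX:1403139-1453762 on the minus strand, with 6 transcripts (3 coding), the longest of 13 exons and 2065 nt with 61.5% GC. PAAF1 (ENSG00000175575) is at chr11:73876699-73931114 on the plus strand, with 16 transcripts (13 coding), the longest of 12 exons and 4954 nt with 45.5% GC. IAH1 (ENSG00000134330) is at chr2:9473658-9496543 on the plus strand, with 15 transcripts (7 coding), and its longest, of 2793 nt and 48.6% GC, is an RNA with a retained intron. FBXL14 and ASMTL stand at percentiles 89.5 and 90.5 of transcript GC among the genes tested, whereas PAAF1 and IAH1, at 40.4 and 52.1, are close to the median gene (48.0% GC). The members thus share neither base composition nor length, and offsets for both left log2 fold changes of 2.33, 1.03, 1.00 and 0.80 for FBXL14, ASMTL, PAAF1 and IAH1.

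Because the ASO is directed at GAA repeats, the longest uninterrupted run of the repeat, in any of its 3 phases, was sought in each transcript. FBXL14 has a longest run of 5 nt, PAAF1 of 6 nt and ASMTL of 7 nt, against a median of 7 nt over 14751 tested genes with a transcript. IAH1 has 10 nt, a length reached by 9.60% of genes, but only in the retained-intron transcript, and the longest run in its coding transcripts is 6 nt. The windows of 30 nt around these runs are printed 5′ to 3′ on the RNA's own strand, as DNA letters, with the run in capitals.
FBXL14, exon 1, untranslated, run at chr12:1594147-1594151: cggcggctggggAGAAGcgctctcgtcgcc
PAAF1, exon 12, untranslated, run at chr11:73927547-73927552: tttgaactgagtAAGAAGgtcattgtgccc
ASMTL, exon 9, coding, run at chrX:1421676-1421682: agggcgttgggGAAGAAGgcggaagatctg
IAH1, exon 4 of the retained-intron RNA, run at chr2:9486483-9486492: aaccaaggccGAAGAAGAAGtgctactatt
IAH1, exon 4 of a coding transcript, run at chr2:9481426-9481431: gaaacagcctggGAAGAAcagtgcatcata
None of the 4 genes has a run of 12 nt or more in its longest transcript, as 2.54% of tested genes do, nor anywhere in the gene body with introns, as 11.3% do. Counting matching bases in place of a perfect run, the best site in the longest transcript matched 14 of the 21 target bases in FBXL14, 13 in ASMTL, 16 in PAAF1 and 13 in IAH1, against a median of 14. These windows describe the GRCh38 transcripts, and whether any is bound by the ASO was not tested.

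The promoters are shown because the 4 genes moved the same way and their starts differ in arrangement. For each gene the 250 bases before the RefSeq start that matched most GENCODE transcripts were read (GRCh38.p14, printed on the gene's own strand). The windows of PAAF1, ASMTL and IAH1 lie inside the annotated genes, where other transcripts start farther upstream. They may therefore hold transcribed sequence, and that of PAAF1 holds exon sequence of another of its transcripts. Capitals mark the GC box (GGGCGG), the CCAAT box by its name, the core of ETS factor sites (CCGGAA) and the repeat unit of the ASO target (GAAGAA), each on either strand.
FBXL14, chr12:1594582-1594831, minus strand: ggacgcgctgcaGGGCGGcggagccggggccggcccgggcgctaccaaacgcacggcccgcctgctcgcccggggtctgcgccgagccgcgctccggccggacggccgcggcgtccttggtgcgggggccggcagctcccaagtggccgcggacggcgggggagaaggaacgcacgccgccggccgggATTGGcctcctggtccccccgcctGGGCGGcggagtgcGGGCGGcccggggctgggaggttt
PAAF1, chr11:73876749-73876998, plus strand: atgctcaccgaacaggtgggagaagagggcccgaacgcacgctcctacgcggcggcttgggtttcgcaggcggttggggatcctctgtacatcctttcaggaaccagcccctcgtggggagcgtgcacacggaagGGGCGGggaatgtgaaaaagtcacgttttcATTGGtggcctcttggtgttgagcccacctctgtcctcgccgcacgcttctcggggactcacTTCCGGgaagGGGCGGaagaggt
ASMTL, chrX:1452910-1453159, minus strand: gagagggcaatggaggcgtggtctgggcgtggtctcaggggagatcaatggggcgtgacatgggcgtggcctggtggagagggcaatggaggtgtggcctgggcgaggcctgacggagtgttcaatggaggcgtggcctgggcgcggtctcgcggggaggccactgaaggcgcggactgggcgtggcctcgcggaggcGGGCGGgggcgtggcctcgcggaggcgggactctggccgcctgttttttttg
IAH1, chr2:9474301-9474550, plus strand: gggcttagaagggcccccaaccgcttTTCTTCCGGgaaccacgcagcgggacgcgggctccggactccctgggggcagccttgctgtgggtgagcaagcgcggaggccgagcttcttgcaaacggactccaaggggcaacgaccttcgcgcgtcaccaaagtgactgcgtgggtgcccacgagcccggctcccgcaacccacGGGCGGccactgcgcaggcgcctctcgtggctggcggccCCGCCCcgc
GGGCGG occurs in all 4 windows, 3 times in FBXL14, 2 times in PAAF1 and in IAH1 and 1 time in ASMTL. It occurs in 42.6% of 35093 windows of 250 bases before RefSeq starts. Those cover every start of a gene, whereas each member's window was picked by transcript support, so the shares are not matched to the members. CCAAT occurs in FBXL14 and PAAF1 (32.0% of promoters) and CCGGAA in PAAF1 and IAH1 (14.5%). GAAGAA occurs in IAH1 alone (16.6%), where it overlaps the CCGGAA match. These counts depend on the start that was read. The windows of other RefSeq starts of FBXL14 and ASMTL hold 0 GGGCGG, and that of FBXL14 holds 1 CCGGAA. Another IAH1 start has 1 GGGCGG and 1 CCGGAA. The printed windows hold 81.2% GC in FBXL14, 71.2% in IAH1, 70% in ASMTL and 62% in PAAF1, against a median of 58%. The printed ASMTL window is built largely of short near-repeats. The PAAF1 window runs over the start of COA4, which is transcribed the other way.

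Genes beside or overlapping the members were examined next. Of 13 such genes 11 were tested, with log2 fold changes of −0.41 to 0.93 and a median of 0.08. None was called by edgeR (0 at an unadjusted p under 0.05) or by DESeq2, although edgeR called no gene of all those tested. FBXL14 lies wholly inside the annotated span of WNT5B, a secreted Wnt ligand on the opposite strand. WNT5B had 1 and 13 counts with anti-GAA and 12 and 8 with the control (log2 fold change −0.41, SE 0.80), its anti-GAA libraries lying far apart. The flanking genes ERC1, a scaffold protein, and ADIPOR2, an adiponectin receptor, had log2 fold changes of 0.08 (SE 0.23) and 0.10 (SE 0.19).

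PAAF1 overlaps COA4, a cytochrome c oxidase assembly factor, head to head over 203 nt. COA4 had a log2 fold change of 0.08 (SE 0.23). MRPL48, a mitochondrial ribosomal protein gene that ends 11565 nt before PAAF1 on the same strand, was the only coding neighbour above 0.4. It had 88.5 and 81.3 CPM with anti-GAA against 70.6 and 53.5 CPM, a log2 fold change of 0.45 (SE 0.22) at an adjusted p of 0.996 by edgeR, and pair differences of 0.33 and 0.60. UCP2, an inner mitochondrial membrane carrier on the other side, had a log2 fold change of −0.03.

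ASMTL overlaps its antisense gene ASMTL-AS1 over 10890 nt. ASMTL-AS1 had 0 and 2 counts with anti-GAA and 7 and 5 with the control and was not tested. Its nearest tested genes, SLC25A6 (an ADP/ATP carrier) and AKAP17A (an A-kinase anchoring protein), had log2 fold changes of 0.04 (SE 0.23) and 0.22 (SE 0.20). IAH1 overlaps ADAM17, the sheddase that releases TNF, by 8058 nt on opposite strands. ADAM17 was low, with a log2 fold change of −0.28 (SE 0.45). CPSF3, the endonuclease of mRNA 3′ end processing, ends 556 nt before IAH1 on the same strand and had 125 and 145 CPM with anti-GAA against 124 and 120 CPM (0.15, SE 0.19). The strand setting of the counting is not given in the sources used here, so reads of a member and of a gene overlapping it on the other strand may not be told apart.

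Each member was also set against the neighbour with the most counts in the same library. This replaces the scaling over all genes by that neighbour, whose own change and noise then enter the ratio. This comparison was chosen after the values were seen. FBXL14 counts were 2.03% and 2.53% of ADIPOR2 counts with anti-GAA and 0.503% and 0.494% with the control. For PAAF1 they were 16.9% and 21.4% of COA4 counts against 9.90% and 10.3%. ASMTL reached 17.94% and 19.7% of SLC25A6 counts against 7.60% and 12.5%, and IAH1 23.4% and 20.4% of CPSF3 counts against 13.5% and 13.8%. The groups did not overlap for any of the 4, from which nothing is read since the members were chosen on this contrast. The log2 differences on this scale were 2.18 for FBXL14, 0.95 for ASMTL, 0.91 for PAAF1 and 0.68 for IAH1.

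No partner of FBXL14 was called by the test. EdgeR called 0 of the 15116 genes tested, higher or lower. A lack of calls, in this list and those below, therefore cannot show that its genes did not change. Of 23 genes of the SCF core and the FBXL family, 20 were tested, of which 11 lay above 0 and 9 below with a median log2 fold change of 0.08 (−0.01 when scaled to total counts), beside 0.01 (−0.08) over all genes. The list's median was 0.17 with length and GC offsets, 0.03 with the replicate block and 0.02 without control replicate 2. None was called by edgeR, none had an unadjusted p under 0.05 (1.02% of all genes were higher and 3.46% lower), and DESeq2 called none. Among those that went the same way in both pairs, FBXL5, the iron-sensing F-box protein, had the largest positive value (0.42, SE 0.21, with 22.7 and 25.3 CPM against 18.6 and 17.3). FBXL6 had the most negative (−0.72, SE 0.33, with 2.83 and 3.03 CPM against 5.22 and 4.48).

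Among 6 proteins reported as FBXL14 substrates, 5 transcripts were tested, 4 of them above 0, with a median of 0.05 (−0.05 when scaled to total counts) and 0 called by edgeR or DESeq2. Single libraries moved this median, to −0.02 without control replicate 1, 0.03 without anti-GAA replicate 2, 0.21 without control replicate 2 and 0.27 without anti-GAA replicate 1. SNAI2, which drives epithelial to mesenchymal transition, had 1.92 and 0.955 CPM with anti-GAA against 4.89 and 2.42 CPM. The groups did not overlap, and the libraries of each group lay far apart. Its log2 fold change was −1.39 (SE 0.54), with an unadjusted p of 0.0379 and an adjusted p of 0.996 by edgeR. TWIST1, a factor of the same transition, had a log2 fold change of 0.38 (SE 0.31). These are RNA levels, and the proteins that FBXL14 acts on were not measured.

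The listed genes of the 19S cap, of which PAAF1 binds the ATPase subunits, lay mostly above 0, and none passed the test. All 21 genes of the 19S cap and its assembly chaperones were tested, and 17 lay above 0, beside 51.6% of all genes, with a median log2 fold change of 0.23 (0.14 when scaled to total counts). The median was 0.25 in the first pair and 0.11 in the second, and it dropped to 0.10 without anti-GAA replicate 1 and 0.11 without control replicate 2. None was called by edgeR, none had an unadjusted p under 0.05 and DESeq2 called none. In 11 of the 21 both pairs were above 0 and in 1 both were below. No share of all genes going the same way in both pairs is available here, so nothing is read from these counts. PSMD9, an assembly chaperone like PAAF1, had the largest positive value of the 11 (0.41, SE 0.37). PSMD1, the largest scaffold of the cap, was the 1 with both pairs below 0 (−0.32, SE 0.19, with 257 and 270 CPM against 311 and 345). PAAF1, at 0.98, lay above every gene of the list, from which nothing is read since it was chosen on this contrast.

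The genes around ASMTL in its region showed no called difference. Of 14 other genes of pseudoautosomal region 1, 9 were tested, 5 above 0 and 4 below, with a median of 0.04 (−0.05 when scaled to total counts), 0 called and 0 at an unadjusted p under 0.05 by edgeR, and 0 called by DESeq2. The sign of the median depended on single libraries, being −0.14 without anti-GAA replicate 1 and −0.22 without control replicate 2 but 0.16 without anti-GAA replicate 2 and 0.15 without control replicate 1. AKAP17A, named above, had the largest value that was positive in both pairs (0.22). PPP2R3B, a regulatory subunit of protein phosphatase PP2A, had the most negative (−0.72, SE 0.58), resting on 6 and 40 counts against 40 and 40, so that the anti-GAA replicate 1 library alone is low.

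For IAH1, 14 of 16 listed ester hydrolases were tested, 9 above 0 and 5 below, with a median of 0.07 (−0.03 when scaled to total counts, 0.13 with length and GC offsets). Without 1 library it ran from 0.02 (anti-GAA replicate 2) through 0.14 (anti-GAA replicate 1) and 0.18 (control replicate 1) to 0.20 (control replicate 2). By edgeR 0 were called and 0 had an unadjusted p under 0.05, and DESeq2 called 0. BPHL, a valacyclovir hydrolase, had the largest value that was positive in both pairs (0.65, SE 0.37, with 7.17 and 11.5 CPM against 4.63 and 7.31). The carboxylesterase CES3 had the most negative (−0.84, SE 0.41, with 1.31 and 1.74 CPM against 2.35 and 3.18). No listed hydrolase reached the value of IAH1, from which nothing is read since IAH1 was chosen on this contrast.

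How far the size of each difference depends on a library or a method was also examined. Leaving out each library in turn gave log2 fold changes of 2.15 to 2.40 for FBXL14, 0.86 to 1.14 for ASMTL, 0.89 to 1.07 for PAAF1 and 0.81 to 0.83 for IAH1. FBXL14 stayed above the other members in each of these fits, while the order of ASMTL and PAAF1 changed with the library left out. A fit with the replicate number as a block called 51 genes (0.337%) higher at an adjusted p under 0.05, all 4 members among them, from which nothing is read since the members were chosen on this contrast.

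**Figure D2:**
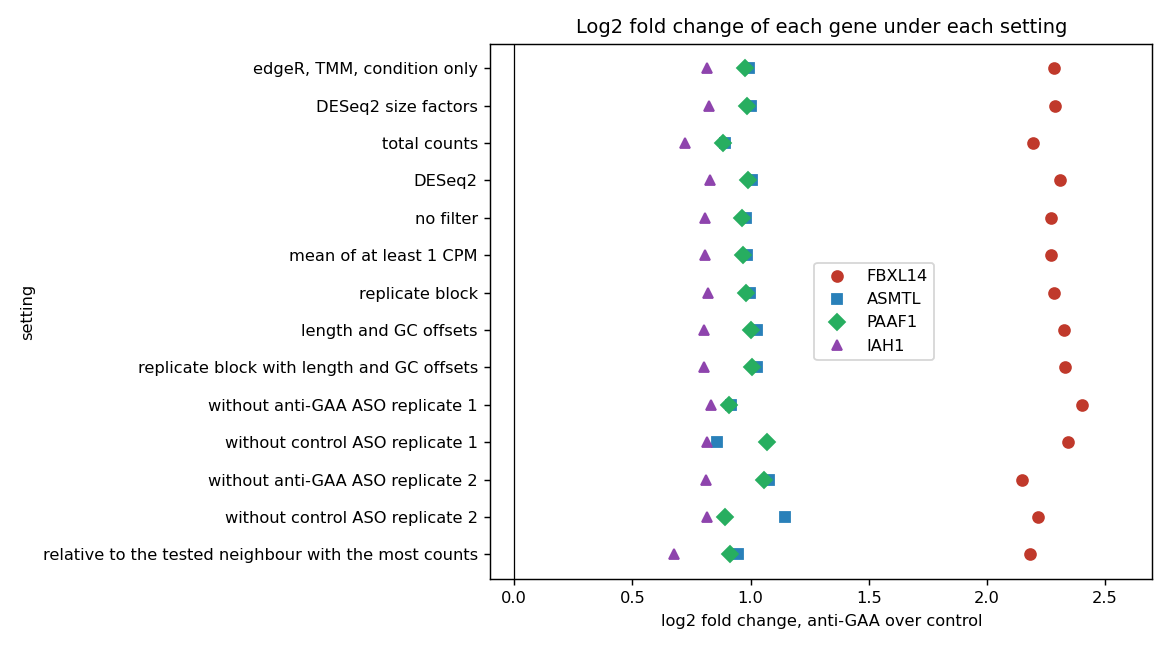
Log2 fold change (anti-GAA over control) of FBXL14 (red circles), ASMTL (blue squares), PAAF1 (green diamonds) and IAH1 (purple triangles) under each setting named on the vertical axis, the top row being the one reported. All points lie right of 0, FBXL14 between 2.15 and 2.40 and the other genes between 0.68 and 1.14. The members were chosen on this contrast, so nothing is read from the sign.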

How the data were processed

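RNA from 4 HCT116 libraries (2 per group) was sequenced by the authors, who trimmed reads, aligned them with STAR to hg19 and counted reads per Ensembl gene with featureCounts. The deposited values are raw counts per gene, with 0 columns left unused. The labels name a total RNA kit and the paper's methods a stranded mRNA kit, and the methods give a shorter transfection than the labels. Which Ensembl release was used, whether counting used strand and how multiply matching reads were handled are not given in the sources used here.

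Counts kept by filterByExpr were scaled by TMM and fitted with edgeR 4.0.16 (quasi-likelihood F-test, condition only, R 4.3.3), with Benjamini-Hochberg adjustment over all genes tested. Pair values are differences of log2 CPM with a prior count of 2. DESeq2 1.42.0, other scalings and filters, length and GC offsets, a replicate block and leaving out each library were alternatives. The edgeR code was also run on simulated counts. These had no effect shared by replicate number, so that run does not measure how the fit performs on these data. GENCODE 44 matched 52181 of 63677 identifiers, and promoters came from RefSeq.

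The members, lists, motifs and windows were chosen with earlier results of these data known. Genes named are the members, genes overlapping or flanking them, the largest rise and fall of each list that went the same way in both pairs, the 3 genes nearest in pattern and those adjoining in rank.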

Additional observations from a re-analysis of the deposited data

How the results depend on the processing

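Under 13 alternatives the log2 fold change of each member stayed above 0. The members were chosen on this contrast and the alternatives reuse its libraries, so nothing is read from that sign. ASMTL and PAAF1 moved by less than the spread within groups in all the alternatives. FBXL14 moved by more without anti-GAA replicate 2 (2.15 within a range of 2.15 to 2.40 over libraries left out). IAH1, whose spread is very small, moved to 0.72 with total counts, 0.81 with no filter, 0.80 with length and GC offsets, 0.80 with these and the replicate block, 0.68 relative to CPSF3 (added after seeing the data) and 0.81 to 0.83 over libraries left out. Genes called higher numbered 0 as reported, 5 with no filter and 0 to 3 over libraries left out (2 without control replicate 1, 3 without anti-GAA replicate 2). Genes called lower numbered 0 as reported, 3 by DESeq2, 111 with no filter and 0 to 16 over libraries left out (16 without control replicate 1, 2 without anti-GAA replicate 2). With the replicate number as a block 51 genes were called higher and 207 lower, and with length and GC offsets as well 101 and 193. Libraries of the same number deviated together (r = 0.564 across genes), but with 2 pairs and no label saying what a number shares, this is a hint from the data and not the design. No listed partner or neighbour was called in any setting, and the causes of these moves were not tested. Depth limits FBXL14, with 8 counts in each control.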

Other observations

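Several genes near ASMTL were too low to test but had counts. ASMT, which encodes the melatonin-forming methyltransferase that part of ASMTL resembles, had 0 and 1 counts in the anti-GAA libraries and 10 and 6 in the controls. The antisense gene ASMTL-AS1 had 0 and 2 against 7 and 5. IL3RA, a receptor subunit for interleukin-3, had 2 and 8 against 4 and 6, P2RY8 had 0 and 1 against 3 and 1, SHOX had 1 count in all, and CRLF2 had none. No fold is given and no test was made at these counts, and the strand setting of the counting is unknown. ASMT and ASMTL-AS1 were named after their values were seen.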
